A study of Mus musculus with 6 samples.

Results

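Trp53 and 9 genes known as targets of its product p53 were described in natural killer (NK) cells, lymphocytes of innate immunity that kill virus-infected or tumour cells: the long noncoding RNA gene Trp53cor1, Cdkn1a, Phlda3, Ccng1, Aen, Mdm2, Bax, Sesn2 and Zmat3. The genes were taken by symbol, and all 10 were present among the 11717 genes of the deposited table. They were chosen with the difference between the genotypes already known. Their differences between genotypes are therefore given as a description, without a test. The RNA came from splenic NK cells of C57BL/6 mice, and all 6 samples carried an IL-15 transgene (IL-15Tg), which supplies a cytokine that NK cells need to survive. One group of 3 was labelled WT and the other group of 3 was labelled as a conditional knockout of Xbp1s (cKO), the spliced form of a transcription factor of the unfolded protein response. The labels give neither the age of the mice, nor the promoter of the transgene, nor the Cre driver of the knockout, nor whether each library came from a separate mouse, so the spread between libraries may be technical.

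The protein p53 is a transcription factor held at a low level by the ubiquitin ligase MDM2 and released by DNA damage and other stress. It then binds DNA as a tetramer at pairs of half-sites and switches on genes that stop the cell cycle, repair DNA, restrain growth signals or start apoptosis, along with Mdm2 itself, which closes a feedback loop. Its control lies mainly at the protein, so the level of Trp53 mRNA is a poor gauge of its activity. In lymphocytes p53 is best known for the death of cells with damaged DNA. Trp53cor1, also called lincRNA-p21, is a noncoding neighbour of Cdkn1a that p53 induces in mouse cells.

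The sequence that p53 reads is shown for the members that carry it near their start, because it is a feature that the expression values were not used to choose. A p53 half-site is a run of purines, then C, then a pair of A or T, then G, then a run of pyrimidines, 10 bases in all. It reads the same on both strands. RefSeq promoters (build GRCm38.p6, 250 bases before to 50 bases after a transcript start) were found for 8 of the 10 members. Of these 8, 6 held at least 1 exact half-site, a share of 75%. The share was 7.85% over the 8254 tested genes with a promoter and 9.55% over all 27025 genes with a promoter. Counted by promoter rather than by gene, it was 8.36% of 32851 promoters of the same length. All of these members but Trp53 were known p53 targets, and a match is not by itself a bound site. In the promoter of Cdkn1a at chr17:29090729-29091028, plus strand, capitals mark a pair of exact half-sites 12 bases apart:
Cdkn1a: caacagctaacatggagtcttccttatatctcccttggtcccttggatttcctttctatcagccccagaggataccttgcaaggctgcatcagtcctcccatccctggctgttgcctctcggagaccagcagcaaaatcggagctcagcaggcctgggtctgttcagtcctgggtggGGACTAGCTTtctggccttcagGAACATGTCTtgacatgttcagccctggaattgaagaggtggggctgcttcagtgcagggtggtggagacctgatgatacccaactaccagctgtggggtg

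This promoter belongs to the upstream of 2 RefSeq starts of Cdkn1a, which lie 2790 bases apart, and the promoter of the downstream start held no half-site. In the upstream promoter, the second half-site in capitals also directly abuts a near match, left in small letters. Together these 20 bases, at chr17:29090928-29090947, form a pair without a spacer and with 1 mismatch, at position 11. An exact pair of half-sites at most 13 bases apart was present in 0.0485% of the tested genes' promoters. With 1 mismatch allowed, Cdkn1a, Ccng1 and Bax had such a pair, against 0.921% of the tested genes. The 40 bases around the exact half-site (in capitals) of 5 further members, written on the strand of the gene, are at chr11:40755447-40755486 (Ccng1, minus), chr7:78895922-78895961 (Aen, plus), chr7:45467075-45467114 (Bax, minus), chr10:117710920-117710959 (Mdm2, minus) and chr11:69580269-69580308 (Trp53, plus):
Ccng1: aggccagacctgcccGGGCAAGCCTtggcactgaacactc
Aen: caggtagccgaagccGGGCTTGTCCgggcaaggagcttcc
Bax: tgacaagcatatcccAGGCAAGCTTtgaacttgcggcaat
Mdm2: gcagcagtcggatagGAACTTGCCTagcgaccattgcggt
Trp53: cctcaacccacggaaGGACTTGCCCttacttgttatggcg

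Phlda3 and Sesn2 had a promoter without an exact half-site. This says only that these letters are not in the 300 bases searched. The known p53 elements of Mdm2, for example, lie in an intron outside that window. For Trp53cor1 the transcript itself was searched, in the longest GENCODE M21 isoform. Exon 1 of that isoform held a half-site that starts at base 132 of the RNA. The other 6 isoforms start further downstream in the gene and had none in their first 300 bases. It is shown in capitals within chr17:29079024-29079063, minus strand, build GRCm38:
Trp53cor1: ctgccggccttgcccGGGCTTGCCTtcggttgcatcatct

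An exact half-site was found in the first 300 bases of 9.37% of the 8706 lincRNA transcripts of at least that length. The half-site was also present in the promoters of 10 of 40 other p53 targets (25%), of 4 of 23 cell cycle genes (17.4%) and of 0 of 21 genes that regulate p53. A pair with at most 1 mismatch was present in 3 of the 40 other targets (7.5%) and in 0 genes of the other lists.

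The reads over the listed genes numbered 26297292 to 29366756 per library. Levels are in CPM, read counts scaled to library size, in which the listed genes of a library sum to 1000000, so a single read was worth 0.0341 to 0.038 CPM. NK cell identity was clear from 10 of 10 markers (Ncr1, Prf1, Gzma and others). Together they took 9788 to 11108 CPM in the WT libraries and 8795 to 9984 CPM in the cKO libraries. The log2 fold change was negative for 9 of these markers and positive for 1, and its median was -0.095. The groups were separated downward for Ncr1, Nkg7 and Klrd1 and upward for Eomes. Ncr1 was at 1305 ± 90.1 CPM in the WT group and 940 ± 51.4 CPM in the cKO group (SD, n = 3 each). It passed in DESeq2 (adjusted p = 2.29e-06) but not in limma or edgeR. The targeted gene Xbp1 was at 42.9, 61.4 and 63.5 CPM in the WT libraries and at 35.1, 33.4 and 39.7 CPM in the cKO libraries, so the groups did not overlap, although the values do not separate the spliced form. Over the 11343 genes tested, 0 (0%) passed an adjusted p of 0.05 in limma and 0 in the edgeR quasi-likelihood test, while DESeq2 passed 6 (0.0529%). Without adjustment, a p under 0.05 was given by limma to 133 genes (1.17% of those tested, 0.846% being higher and 0.326% lower in cKO), by edgeR to 145 (1.28%) and by DESeq2 to 155 (1.37%). Markers of B cells and macrophages were higher in cKO on average, as the members were. Medians of the log2 fold change were also positive for dendritic cell (0.31, 6 higher and 1 lower) and neutrophil markers (0.22, 7 and 1). They were 0.19 for T cell markers (6 and 4) and 0.13 for plasma cell markers (3 and 1). The median of erythroid markers was -0.014 (2 higher and 3 lower). All 10 B cell markers had a positive log2 fold change, with a median of 1.08, and so did all 7 listed macrophage markers, with a median of 0.63. Both medians exceed that of the p53 set, and no marker of either list passed (limma, adjusted p = 1.0). Among them only Axl, a receptor kinase of macrophages picked out after its values were seen, had its groups separated, with the 3rd highest log2 fold change of all genes tested (1.499, SE 0.40). The 10 B cell markers summed to 74.0 to 435 CPM in the WT group and 218 to 708 CPM in the cKO group, and the 7 of 12 macrophage markers that were listed summed to 196 to 267 CPM in the WT group and 237 to 458 CPM in the cKO group. None of these listed markers was at 0 reads in any library. In bulk RNA, fewer cells of a type and less RNA per cell cannot be told apart.

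All 10 members had a higher mean in cKO than in WT, and in 7 of them every cKO library lay above every WT library. Those 7 were Trp53cor1, Phlda3, Cdkn1a, Aen, Sesn2, Ccng1 and Bax, while Mdm2, Zmat3 and Trp53 overlapped. Such a separation upward was seen in 2.55% of all genes tested and a separation downward in 1.77%. A log2 fold change above 0 was seen in 55.5% of them. The members' median log2 fold change was 0.17 after 0.5 CPM was added to every value, which understates the change of low genes, and that of all genes tested was 0.0087. Since the members were chosen on this contrast, these shares are a description only. The count of 7 was 7 to 9 when single libraries were left out, being 9 without WT library 3 and 8 without cKO library 2. Separated groups stay separated when a library is left out, so this count could not fall.

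**Figure D1:**
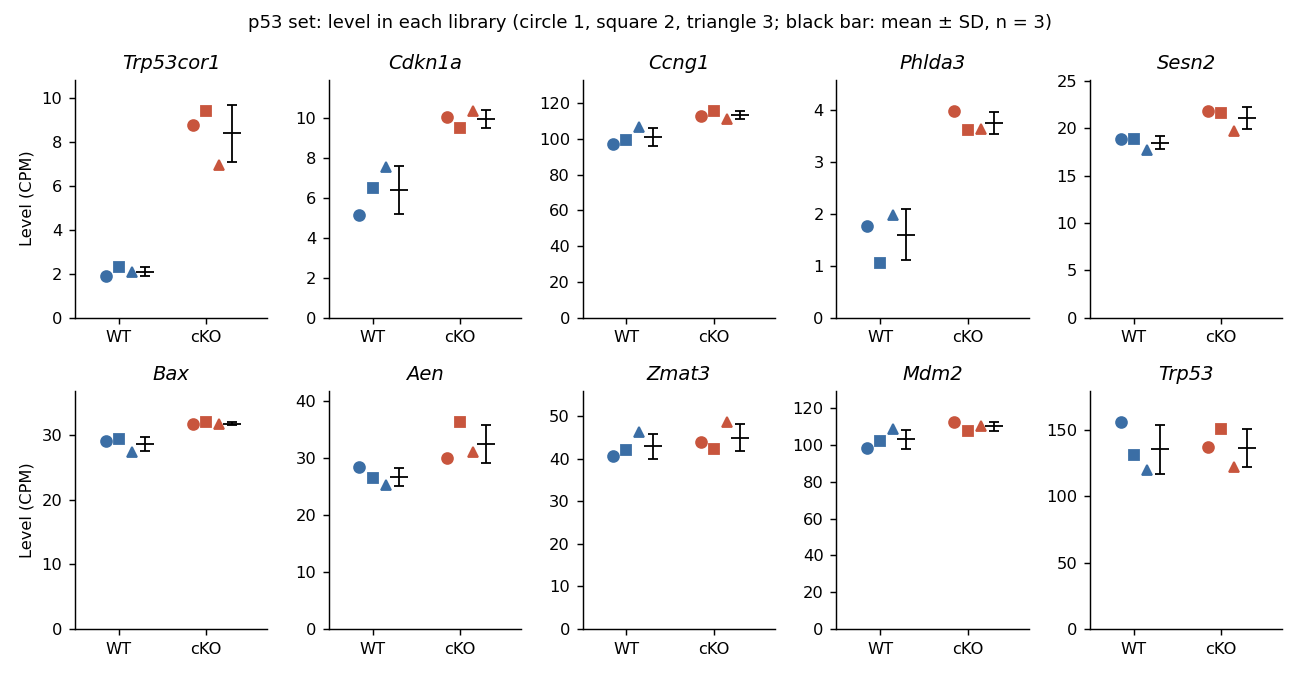
Level of each of the 10 genes in CPM (vertical axes start at 0) in the 3 WT libraries (blue) and the 3 cKO libraries (red), with symbols for library 1 (circle), 2 (square) and 3 (triangle) and a black bar for the mean ± SD (n = 3). Trp53cor1, Cdkn1a and Phlda3 show the widest gaps between the groups, and the WT and cKO libraries of Trp53, Mdm2 and Zmat3 overlap.

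Trp53cor1 (ENSMUSG00000085912.2, chromosome 17, 29057430 to 29079179, minus strand, build mm10 with GENCODE M21 gene bounds) had the highest log2 fold change of all 11343 genes tested. It was at 1.88, 2.31 and 2.09 CPM in WT libraries 1 to 3, from 52, 66 and 55 reads. In cKO libraries 1 to 3 it was at 8.79, 9.41 and 6.95 CPM, from 258, 268 and 187 reads. The lowest cKO library thus stood well clear of the highest WT library. The means were 2.09 ± 0.216 CPM in the WT group and 8.38 ± 1.28 CPM in the cKO group (SD, n = 3 each), a ratio of 4.01 and a log2 fold change of 1.77 (SE 0.15). The WT spread was below the 0.276 CPM that counting alone would give, and the cKO spread was above its counting value of 0.544 CPM. With single libraries left out the log2 fold change ran from 1.69 to 1.89. The annotation places another lincRNA on the opposite strand across the 3′ end of Trp53cor1, and as the use of strand in counting is not stated, reads from the shared stretch cannot be told apart.

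Cdkn1a (ENSMUSG00000023067.14, chromosome 17, 29090976 to 29100727, plus strand) encodes p21, the inhibitor of cyclin-dependent kinases through which p53 arrests the cell cycle. Its start lies 11.8 kb from that of Trp53cor1, and the genes point away from each other. Cdkn1a was at 5.16, 6.51 and 7.57 CPM in WT libraries 1 to 3 and at 10.1, 9.48 and 10.4 CPM in cKO libraries 1 to 3. The 3 cKO values lay close together and above the more spread WT values. The means were 6.41 ± 1.20 and 9.98 ± 0.452 CPM (SD, n = 3 each), a ratio of 1.56 and a log2 fold change of 0.61 (SE 0.15), the 136th highest of all genes tested. It ran from 0.48 to 0.73 with single libraries left out. Relative to Cdkn1a, Trp53cor1 had 0.364, 0.355 and 0.276 reads per Cdkn1a read in the WT libraries and 0.872, 0.993 and 0.670 in the cKO libraries. The noncoding gene was therefore further apart between the groups than its coding neighbour. An annotated transcript of uncertain coding status overlaps Cdkn1a on the other strand.

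No neighbour of the pair had its groups separated. Within 500 kb of Trp53cor1, 14 other genes were listed and tested, 9 with a higher and 5 with a lower mean log2 level in cKO, and their log2 fold changes had a median of 0.02. The groups overlapped in all 14, which were Srpk1, Mapk14, AC170998.1, Brpf3, Kctd20, Stk38, Srsf3, Rab44, Ppil1, BC004004, Mtch1, Fgd2, Pim1 and Tbc1d22b. None passed limma (adjusted p = 1.0 for each) or edgeR or DESeq2 over all genes, and at an unadjusted p under 0.05 limma listed 0 and edgeR 1. Srsf3, a splicing factor gene 14.1 kb from Trp53cor1 on the side away from Cdkn1a, was at 285 ± 11.1 CPM in the WT group and 281 ± 7.48 CPM in the cKO group. Rab44, a small GTPase gene on the far side of Cdkn1a, was at 4.87 ± 1.21 and 5.65 ± 1.14 CPM. The kinase gene Pim1 was at 291 ± 20.3 and 284 ± 12.3 CPM (SD, n = 3 each).

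The gene that edgeR listed, Fgd2, is an exchange factor known from antigen-presenting cells. It was at 14.8, 16.97 and 16.4 CPM in the WT libraries and at 31.1, 15.03 and 39.1 CPM in cKO libraries 1 to 3. Its log2 fold change of 0.70 (SE 0.33) was as large as that of Cdkn1a, but cKO library 2 lay among the WT libraries. The summed B cell markers were high in the same cKO libraries, at 708 and 653 CPM in cKO libraries 1 and 3 and 218 CPM in cKO library 2. In WT libraries 1 to 3 these sums were 326, 435 and 74.0 CPM, while Fgd2 ran only from 14.8 to 16.97 CPM. The part of B cells in the value of Fgd2 was not tested.

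**Figure D2:**
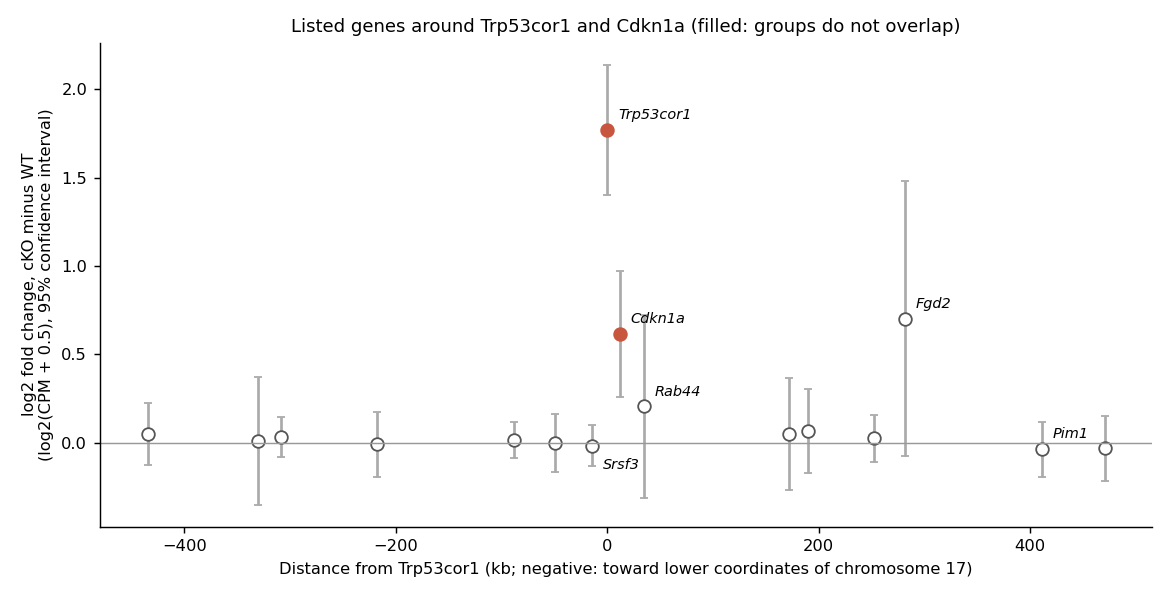
Log2 fold change (cKO minus WT, on log2(CPM + 0.5)) of the 16 listed genes within 500 kb of Trp53cor1, by distance from that gene in kb, with 95% confidence intervals from limma. Filled points mark genes whose groups do not overlap, Trp53cor1 at 1.77 and Cdkn1a at 0.61, while the other genes lie near 0 apart from Fgd2 at 0.70 with a wide interval.

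Among the members that restrain growth signals, Phlda3 was the furthest apart. Phlda3 (ENSMUSG00000041801.5, chromosome 1, 135766119 to 135769136, plus strand) encodes a small pleckstrin homology domain protein that competes with AKT for membrane lipids. It was at 1.77, 1.05 and 1.98 CPM in WT libraries 1 to 3 (49, 30 and 52 reads) and at 3.98, 3.62 and 3.64 CPM in cKO libraries 1 to 3 (117, 103 and 98 reads). Every cKO library was well above the highest WT library, WT library 3. The means were 1.60 ± 0.487 and 3.75 ± 0.205 CPM (SD, n = 3 each), a ratio of 2.34 and a log2 fold change of 1.04 (SE 0.21). The WT spread exceeded the 0.242 CPM of counting, and the cKO spread was below the 0.364 CPM of counting.

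Sesn2 encodes a sestrin, a leucine-binding protein that lowers mTORC1 activity. It was at 18.9, 18.9 and 17.7 CPM in WT libraries 1 to 3 and at 21.9, 21.7 and 19.7 CPM in cKO libraries 1 to 3. The gap between the groups was narrow, between WT library 1 and cKO library 3, and the log2 fold change was 0.18 (SE 0.08). A gene that is also listed lies within Sesn2 in the annotation, which classes it as antisense but places it on the same strand as Sesn2.

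Ccng1, Aen and Bax stand for the feedback and death arms. Ccng1, which encodes cyclin G1, a partner of the phosphatase PP2A that acts on MDM2, was at 97.2, 99.5 and 107 CPM in WT libraries 1 to 3. In cKO libraries 1 to 3 it was at 113, 116 and 111 CPM. All cKO values were higher, and WT library 3 came nearest to them. The means were 101 ± 4.87 and 113 ± 2.28 CPM (SD, n = 3 each), a difference of 12.1% and a log2 fold change of 0.17 (SE 0.05).

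Aen, an apoptosis-enhancing nuclease, was at 28.4, 26.5 and 25.3 CPM in the WT libraries and at 29.97, 36.3 and 31.1 CPM in cKO libraries 1 to 3. Only cKO library 2 stood far above WT. The means were 26.7 ± 1.56 and 32.5 ± 3.39 CPM (SD, n = 3 each), a difference of 21.4% and a log2 fold change of 0.27 (SE 0.09), which ran from 0.19 to 0.33 with single libraries left out.

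Bax, a pore-forming protein of the mitochondrial death pathway, was at 28.99, 29.4 and 27.3 CPM in the WT libraries and at 31.6, 31.96 and 31.6 CPM in the cKO libraries. The 3 cKO values were almost equal, with an SD of 0.202 CPM where counting alone would give 1.06 CPM. The difference was 11.1% and the log2 fold change 0.15 (SE 0.06). A read-through gene overlaps Bax on the same strand in the annotation.

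The groups overlapped in the remaining 3 members. Mdm2 was at 98.5, 102 and 108 CPM in the WT libraries and at 112, 108 and 110 CPM in cKO libraries 1 to 3. The highest WT library lay above the lowest cKO library, and the log2 fold change was 0.096 (SE 0.05). Zmat3, an RNA-binding zinc finger protein, was at 40.5, 42.1 and 46.2 CPM in the WT group and at 43.9, 42.3 and 48.6 CPM in cKO, with a log2 fold change of 0.064 (SE 0.08). Trp53 itself was at 156, 131 and 120 CPM in the WT group and at 137, 151 and 122 CPM in the cKO group. Its means of 135 ± 18.5 and 136 ± 14.2 CPM (SD, n = 3 each) were apart by far less than the spread, and its log2 fold change of 0.014 (SE 0.12) had the opposite sign under 5 of 17 alternative settings.

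Per kilobase of exon, which allows levels to be set beside each other, the order of the 10 genes was the same in both groups. In WT, Trp53 was at 33.5 ± 4.57 and Ccng1 at 28.8 ± 1.39 CPM per kb (SD, n = 3 each), and their libraries overlapped. Below them came Mdm2 at 20.3, Bax at 18.1, Sesn2 at 5.32, Aen at 4.61 and Zmat3 at 3.76 CPM per kb. The genes with the widest gaps between the groups were the lowest of the set, Cdkn1a at 1.80, Phlda3 at 1.03 and Trp53cor1 at 0.561 CPM per kb. No neighbours in the WT order overlapped except Trp53 and Ccng1. In cKO the lowest 3 had drawn together, at 2.81, 2.40 and 2.25 CPM per kb in the same order, and the libraries of Phlda3 and Trp53cor1 overlapped, as did those of Trp53 and Ccng1 and those of Sesn2 and Aen.

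Within a group the members did not move as one. In both groups the libraries held the same order for Trp53 as for the sum of 29 cell cycle genes, with WT library 1 at 156 CPM of Trp53 and 2220 CPM of cell cycle genes and cKO library 2 at 151 and 2069 CPM. The other libraries had 1370 to 1455 CPM of cell cycle genes. Cdkn1a followed another list in both groups, the 10 genes that rise during tissue handling (Fos, Jun, Egr1, Hspa1a and others), which summed to 340, 391 and 614 CPM in WT libraries 1 to 3 and to 421, 350 and 651 CPM in cKO libraries 1 to 3. The handling genes overlapped between the genotypes, both in their sums and in each of the 10 genes. Their log2 fold changes were positive in 9 and negative in 1, with a median of 0.13. At a sum of 350 CPM, cKO library 2 had 9.48 CPM of Cdkn1a, and at 614 CPM, WT library 3 had 7.57 CPM. The order of 3 libraries per group is a description only, and the part of handling in the level of Cdkn1a was not tested.

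The sums of B cell and macrophage markers differed between libraries as well. They were 326, 435 and 74.0 CPM for B cells and 212, 267 and 196 CPM for macrophages in WT libraries 1 to 3. In cKO libraries 1 to 3 they were 708, 218 and 653 CPM for B cells and 458, 237 and 293 CPM for macrophages. On both sums cKO library 2 lay below WT library 2 and above WT library 3, and against WT library 1 it was lower in B cell and higher in macrophage markers. In cKO library 2, Trp53cor1 was at 9.41 CPM, Phlda3 at 3.62 CPM and Cdkn1a at 9.48 CPM. The part of other cells in the members' values was not tested.

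**Figure D3:**
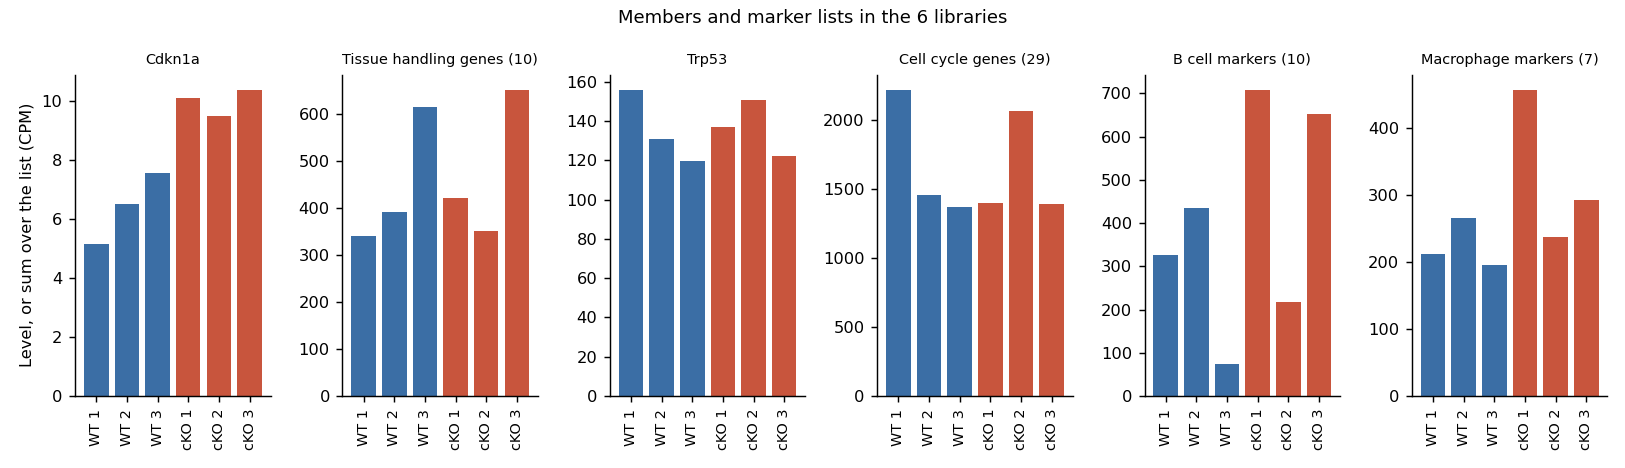
Level of Cdkn1a and Trp53, and levels summed over lists of tissue handling genes, cell cycle genes, B cell markers and macrophage markers, in CPM in each WT (blue) and cKO (red) library; all bars start at 0. Cdkn1a is higher in all 3 cKO libraries, whereas the summed lists overlap between the groups, with the cell cycle sum highest in WT library 1 and cKO library 2.

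Over the 6 libraries, the 5 tested genes whose log2 levels were most like Cdkn1a were Angel1 (Pearson r = 0.993), Gm43571 (0.987), Map2k1 (0.980), Gm44200 (0.978) and Eloa (0.974). These values rest on 6 libraries that share the split by genotype, and 43 of the tested genes had an r over 0.9. Of the members, Ccng1 (0.946) and Mdm2 (0.937) were above that mark, Trp53cor1 was at 0.892 and Trp53 at -0.36.

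The rest of the p53 pathway was examined next. Of 63 other p53 targets, 48 were listed, and all 48 were tested. They had a median log2 fold change of 0.044, with positive values in 31 and negative values in 17. In 3 of the 48 (6.25%, against 2.55% of all genes) every cKO library was above every WT library, and in 2 (4.17%, against 1.77%) every cKO library was below. None of the 48 passed in limma, edgeR or DESeq2 over all genes, and at an unadjusted p under 0.05 limma listed 3, edgeR 3 and DESeq2 2. Their log2 fold changes ran from -0.38 (Hic1) to 0.56 (Plxnb2), all below the 0.61 of Cdkn1a. The count of 3 became 8, 6 and 8 without WT libraries 1 to 3 in turn and 5 without cKO library 3, since fewer libraries have to be separated.

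The 7 other targets that brake the cell cycle and growth had a median log2 fold change of 0.003. Btg2, an antiproliferative gene, was at 319 ± 21.001 CPM in the WT group and 329 ± 14.2 CPM in cKO, and Sesn1, a relative of Sesn2, at 97.0 ± 14.6 and 103 ± 8.24 CPM. Ddit4, an inhibitor of mTORC1, was at 49.3 ± 22.6 and 40.7 ± 4.45 CPM (SD, n = 3 each). In all 7 the groups overlapped.

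The 10 targets of the death and autophagy arm had a median of 0.06, 7 higher and 3 lower. The BH3-only genes Bbc3 (PUMA) and Pmaip1 (NOXA) were at 26.3 ± 3.09 and 13.4 ± 5.04 CPM in the WT group and at 27.3 ± 1.42 and 13.6 ± 1.99 CPM in cKO. Trp53inp1, a cofactor of p53, was at 222 ± 5.94 and 233 ± 16.7 CPM, and Ei24, an endoplasmic reticulum protein of autophagy, at 55.5 ± 4.45 and 58.5 ± 3.35 CPM (SD, n = 3 each). Aifm2, the ferroptosis suppressor FSP1, lay the other way, at 12.4, 14.0 and 11.9 CPM in the WT group and 11.5, 10.05 and 10.2 CPM in cKO. Its groups did not overlap, and its log2 fold change of -0.26 did not pass (limma, adjusted p = 1.0).

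The 7 targets of DNA repair and nucleotide supply had a median of 0.015. Xpc, which recognises helix-distorting damage, was the one whose groups did not overlap, at 30.9, 29.98 and 31.0 CPM in the WT libraries and 36.0, 33.4 and 31.96 CPM in the cKO libraries. Its log2 fold change of 0.14 did not pass (limma, adjusted p = 1.0). Rrm2b, a ribonucleotide reductase subunit, was at 44.0 ± 1.91 and 41.5 ± 1.39 CPM, and the nuclease gene Ercc5 at 24.6 ± 2.48 and 25.9 ± 0.2503 CPM (SD, n = 3 each). Gpx1, Ephx1, Aldh4a1 and 6 other metabolic targets had a median of 0.044 and overlapped throughout. In that list Ephx1, an epoxide hydrolase, was at 9.50 ± 2.75 and 12.47 ± 2.16 CPM, the proline pathway gene Aldh4a1 at 12.4 ± 0.401 and 14.1 ± 1.55 CPM, and Lpin1 at 435 ± 30.7 and 419 ± 19.5 CPM (SD, n = 3 each).

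The 15 targets of feedback and signalling had a median of 0.097, with 9 higher and 6 lower. Ppm1d, the phosphatase WIP1 that switches off p53 signalling, was at 40.9 ± 2.18 CPM in the WT group and 43.7 ± 1.38 CPM in the cKO group (SD, n = 3 each). Plxnb2, a semaphorin receptor, was at 12.7, 12.9 and 12.51 CPM in the WT group and at 25.5, 13.6 and 19.8 CPM in cKO libraries 1 to 3. The groups did not overlap, but cKO library 2 lay close to WT, and the log2 fold change of 0.56 did not pass (limma, adjusted p = 1.0). The macrophage markers had the same order in cKO, at 458, 237 and 293 CPM in libraries 1 to 3, and their part in the value was not tested. The thiamine transporter gene Slc19a2 was at 10.9 ± 0.564 and 12.2 ± 0.409 CPM, and the repressor gene Hic1 at 5.45 ± 0.379 and 4.08 ± 0.374 CPM (SD, n = 3 each). Neither pair of groups overlapped, and neither gene passed (limma, adjusted p = 1.0).

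**Figure D4:**
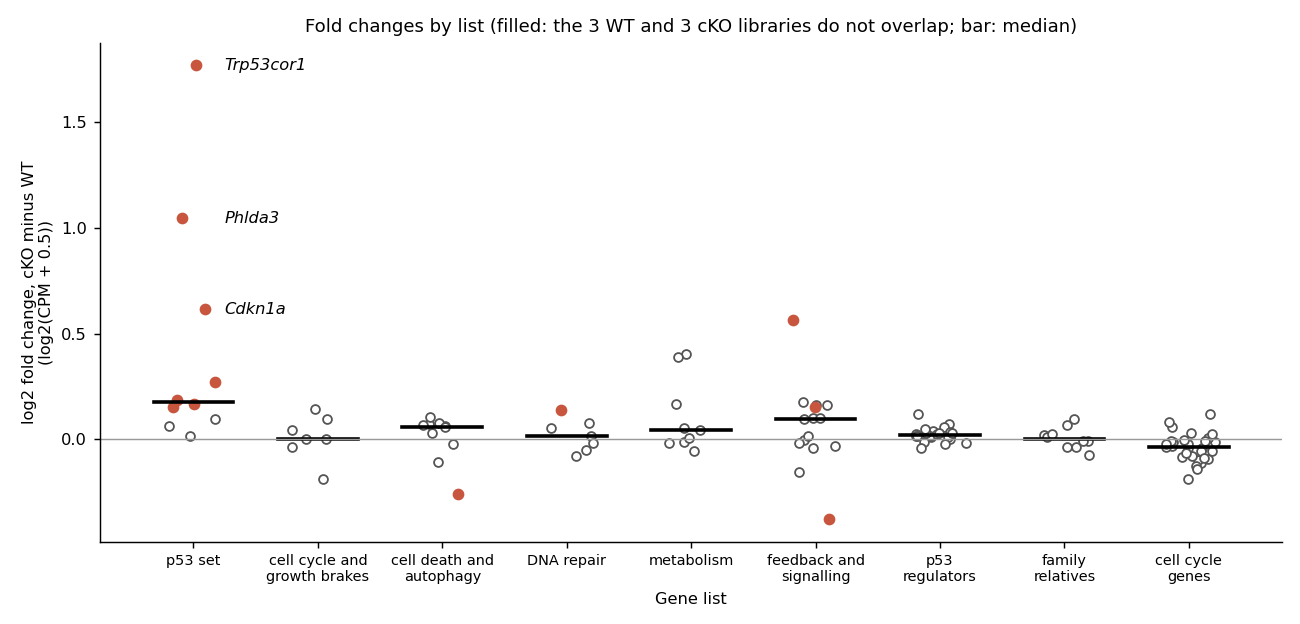
Log2 fold change (cKO minus WT, on log2(CPM + 0.5)) of each tested gene in the p53 set, in 5 lists of other p53 targets, in p53 regulators, in family relatives of the members and in cell cycle genes; points are spread sideways for legibility, filled points are genes whose groups do not overlap, and bars are medians. The p53 set has a median of 0.17, and the medians of the other lists lie between -0.037 and 0.097.

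Of 24 genes that control p53, 22 were tested. Their log2 fold changes had a median of 0.022, with positive values in 18 and negative values in 4. Over all genes tested 55.5% were positive. In none of the 22 were the groups separated in either direction. Atm and Atr, the kinases that signal DNA damage to p53, were at 133 ± 2.69 and 75.2 ± 6.22 CPM in the WT group and at 137 ± 6.73 and 79.0 ± 6.00 CPM in cKO. Usp10, a deubiquitinase of p53, was at 57.8 ± 6.83 and 62.6 ± 3.59 CPM (SD, n = 3 each). Omission of WT library 2 gave a median of -0.00076, and omission of cKO library 3 gave -0.01. None of the 22 passed in limma, edgeR or DESeq2, and each of these listed 0 at an unadjusted p under 0.05.

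Of 18 family relatives of the members, 10 were tested, 5 higher and 5 lower. The median of their log2 fold changes was 0.0026, with overlapping groups in all 10. Cdkn1b (p27), the relative of Cdkn1a, was at 181 ± 6.59 CPM in the WT group and 183 ± 9.03 CPM in cKO. Mdm4, the relative of Mdm2, was at 314 ± 19.8 and 318 ± 37.6 CPM, Ccng2, the relative of Ccng1, at 79.8 ± 4.64 and 83.8 ± 4.39 CPM, and Bak1, the relative of Bax, at 93.5 ± 4.53 and 88.9 ± 6.06 CPM (SD, n = 3 each).

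Genes of the cell cycle that p21 represses through the DREAM complex were examined next. Of 30 such genes, 29 were tested, and their median log2 fold change was -0.037, negative in 23 and positive in 6. In none of the 29 were the groups separated, none passed in limma, edgeR or DESeq2, and each of these listed 0 at an unadjusted p under 0.05. Top2a, the topoisomerase of dividing cells, was at 220, 151 and 136 CPM in the WT group and at 129, 199 and 135 CPM in cKO libraries 1 to 3, so each group held one high library. Tpx2, a spindle protein, was at 29.6 ± 11.4 and 25.6 ± 8.13 CPM, and E2f1 at 10.1 ± 2.50 and 10.98 ± 2.78 CPM (SD, n = 3 each). The sign of the median depended on single libraries, being 0.22 without WT library 1, 0.055 without cKO library 1 and 0.081 without cKO library 3.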

How the data were processed

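Per the labels' protocols, total RNA of purified splenic NK cells was sequenced as 50 bp single reads. HISAT2, HTSeq, DESeq2 and build mm10 are named in the submitters' processing notes; their settings and strand use are not stated. The deposited table is named for RPKM but holds CPM made by the authors: each column summed to 1000000, and 1 read was worth the same in short and long genes, so that 100% of values were whole reads within 0.01 reads. The deposited total exon length was used for levels per kb. The 11343 of 11717 genes that reached 1 CPM in 3 or more libraries were fitted by limma 3.58.1 (R 4.3.3; intensity trend, genotype alone) as log2(CPM + 0.5), with Benjamini-Hochberg adjustment over all genes at 0.05. The recovered counts were also tested with edgeR 4.0.16 and DESeq2 1.42.0. The fit was tested on simulated data. Every pair of libraries differed by more than sampling noise (lowest chi-square over degrees of freedom 4.75). The spreads said to come from counting were derived from read numbers and cover counting error only. The SEs and the plotted intervals come from limma and rest on the spread between libraries within a group. Coordinates and names are from GENCODE M21 (GRCm38, the same build), matched by identifier for 11709 genes; promoters are from RefSeq.

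The members and lists were chosen with earlier results of these data known. Named by rule were all members, Xbp1, the 3 genes of smallest p in each list, listed genes within 500 kb of Trp53cor1, and the 5 genes most correlated with Cdkn1a; Cdkn1b, Mdm4, Bbc3, Pmaip1, Gpx1 and Ppm1d were added after their values were seen.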

Additional observations from a re-analysis of the deposited data

How the results depend on the processing

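Of the 11 alternative settings and 6 single-library omissions, none changed the sign of a member it included, except Trp53. Where groups are separated, an omission cannot change the sign. The lack of a filter and the replicate block leave each fold change as it was. Phlda3 was dropped by the filter of a mean of at least 5 CPM, which left 6 members with separated groups. Other pseudocounts and filters, TMM factors, median ratios and scaling without Gm26917 and Gm42418 moved no list median by more than the spread between libraries. For the other p53 targets, whose median was 0.044, quantile normalization gave 0.0050, edgeR 0.015 and DESeq2 0.014, and omission of single libraries gave 0.015 to 0.063; the cause was not tested. Their count of genes with every cKO library above WT was 3 to 8 with single libraries omitted, where fewer libraries have to be separated. The count of all genes passing was 0 in limma and edgeR and 6 in DESeq2.

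Replicate numbers 1 and 2 did not pair the libraries. Deviations of same-numbered libraries correlated at -0.17, -0.51 and 0.48 for numbers 1, 2 and 3. The cKO libraries 1 and 2 correlated best with WT libraries 2 and 1, at 0.65 and 0.59. Chi-square over degrees of freedom was 4.75 for WT library 1 with cKO library 2. It was 7.15 for WT library 2 with cKO library 1 and 14.5 for WT library 3 with cKO library 3. Every pair within a genotype was further apart, at 16.8 or more. With a block by replicate number 0 genes passed, and a block by the closest pairs was not fitted. The members' median of 0.17 is the same by construction, since a block cannot change a fold change in this balanced design. With 3 libraries a group, the low read numbers of Trp53cor1 and Phlda3 in WT limit the precision of their ratios.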
